A study of Rattus norvegicus with 18 samples.

Results

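The genes described here encode nuclear-encoded subunits of the mitochondrial respiratory chain (complexes I to IV) and cytochrome c. The members were given by name, 37 genes in all, and a gene counted as measured where a probe set carried its symbol and no other. That held for 34 of the 37, out of 14218 genes named in this way on the array: 18 of 19 subunits of complex I, 4 of complex II, 5 of 6 of complex III and 7 of complex IV. Ndufa10, Uqcrb and cytochrome c (Cycs) were represented only by probe sets that also carry the name of a related gene or pseudogene, and were not analysed here.

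Bone marrow mesenchymal stem cells (BMSCs), the adherent stromal cells of the marrow, came from Sprague-Dawley rats that were 6 weeks old when the diets began. The normal diet (ND) was 100% basal feed, and the high-fat diet (HFD) was a mix of basal feed (60%), lard (20%), sucrose (10%) and egg yolk powder (10%). Rats were fed for 1, 2 or 4 months, which gave 6 groups of 3 Affymetrix arrays of total RNA, with no allele or agent other than the diet named. The cells were grown by plating whole marrow, and the RNA came from culture: the passage is 3 by the sample labels but 1 by the series text, and nothing settles it. No batch, scan date or pairing is named, and nothing says whether an array is 1 animal, so the p-values measure only the spread between these arrays.

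The respiratory chain lies in the inner mitochondrial membrane. Complex I takes electrons from NADH and complex II from succinate, both pass them to ubiquinone, complex III hands them to cytochrome c, and complex IV passes them to oxygen. Complexes I, III and IV pump protons, and the ATP synthase uses the resulting gradient to make ATP. In marrow stromal cells in culture, glycolysis is known to be prominent, and respiration is known to increase when the cells differentiate towards bone.

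Across the 18 arrays the subunit genes varied little. Their mean log2 intensities lay between 6.49 (Ndufb8) and 11.52 (Cox4i1), and the 34 genes all passed the filter that removed the dimmest 30% of probe sets. Between the lowest and the highest array a subunit gene moved by a median of 0.45 log2 units (0.24 to 0.83), against 0.72 for the 6439 tested genes in the same range of brightness and 0.80 for all 11446. The spread between arrays of a group (residual SD) had a median of 0.10 log2 units for the subunits, 0.18 for the genes of like brightness and 0.20 for all. Probe sets differ in how brightly they bind, so these levels rank no gene against another.

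The cultures carried the RNA of stromal cells and, in varying amounts, of macrophages. Of the 15 stromal markers 14 were bright enough to be tested. The collagen chain Col1a1 lay between 12.04 and 12.70 and the surface protein Thy1 between 11.71 and 12.13. Of 25 macrophage and monocyte markers 21 were tested. The lysozyme gene Lyz2 ranged from 8.07 to 12.97, Cd68 from 4.53 to 10.78, and Ptprc (CD45), a defining marker of blood cells, from 2.18, below the filter level of 3.22, to 7.96. The share of macrophage RNA thus differed between cultures by these markers. Fewer cells of a type and less RNA per cell cannot be told apart in such samples.

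In no comparison did a subunit gene pass the test, limma's moderated test at an adjusted p under 0.05 over all 21729 probe sets tested. Under the high-fat diet most subunit genes nevertheless had lower means at every time. The median difference (HFD minus ND) over the 34 genes was -0.10 log2 units at 1 month (31 negative), -0.14 at 2 months (30 negative) and -0.05 at 4 months (28 negative). Averaged over the times it was -0.11, with 32 of 34 negative. Over all tested genes the median was -0.06, -0.04, -0.01 and -0.04 in the same order, and 62.6%, 55.3%, 52.5% and 59.7% of genes were negative. For the 6439 tested genes in the subunits' range of brightness it was -0.09, -0.08, -0.03 and -0.07. Of these genes 73.0%, 60.9%, 58.0% and 69.0% were negative. At 1 month the subunits' median was thus close to that of genes of like brightness. The subunits' median at 4 months depended on single arrays. It was -0.01 without ND replicate 1 of that time, -0.09 without ND replicate 3 and -0.02 without HFD replicate 1. Of the 34 genes, 24 were negative at all 3 times, and Ndufa1, a small subunit of the membrane arm of complex I, was positive at all 3. The lowest of the 3 values fell at 2 months for 21 genes, at 1 month for 9 and at 4 months for 4. Because each subunit was precisely measured, the 95% intervals were narrow: over 34 genes and 3 times (102 intervals) the lowest bound was -0.71 and the highest 0.34, so that none reached 1 log2 unit either way.

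**Figure D1:**
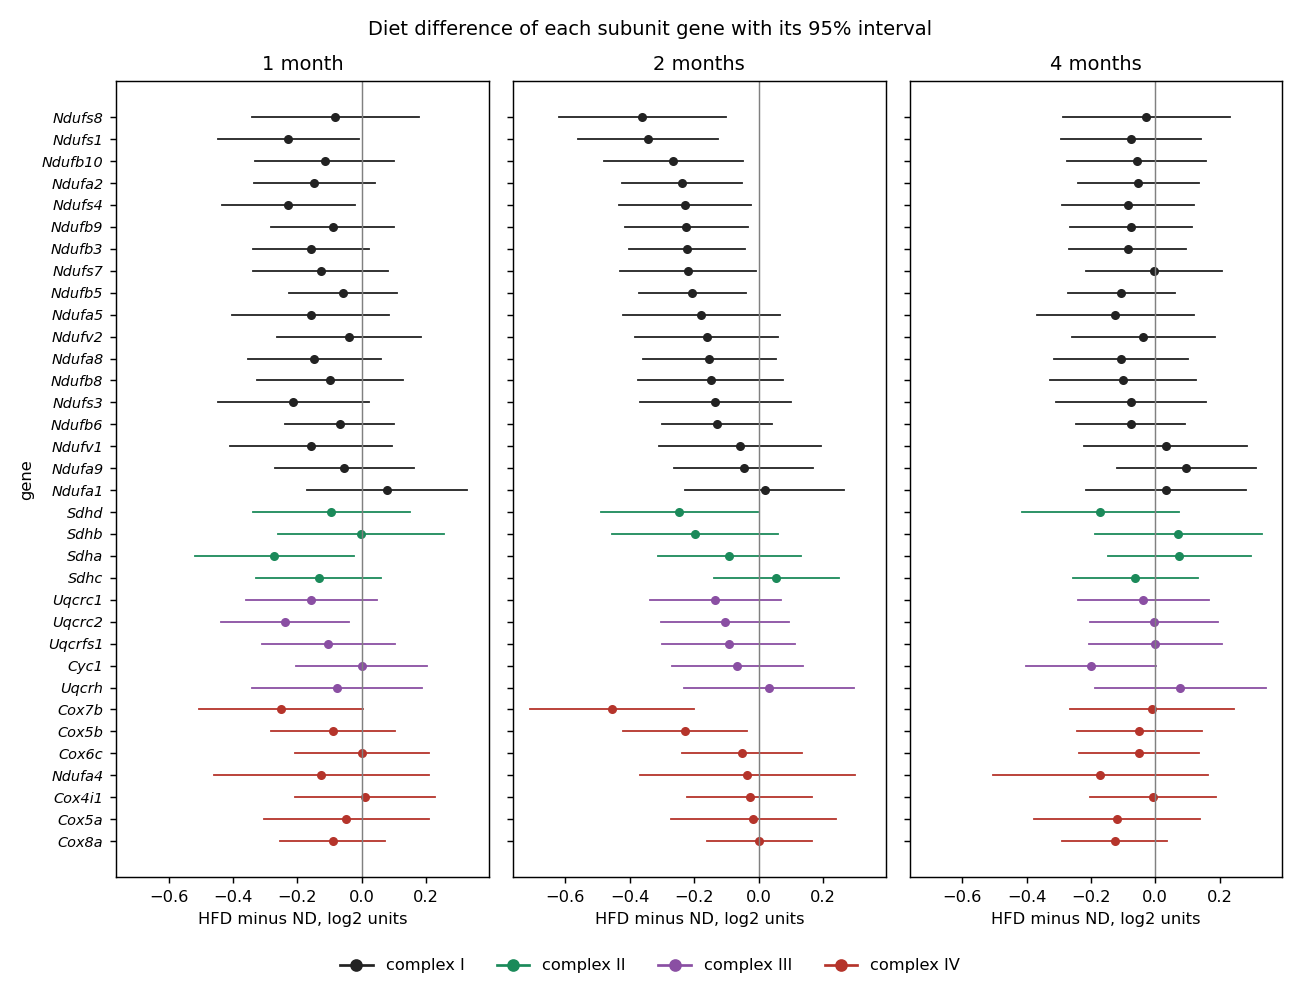
Difference between diets (HFD minus ND, log2 units, horizontal axis) of each of the 34 subunit genes (rows, coloured by complex) at 1, 2 and 4 months, with points for the fitted difference and lines for its 95% interval. At 2 months 30 of 34 points lie left of 0, from -0.46 for Cox7b to 0.06 for Sdhc.

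At 2 months the difference was widest. In this comparison 2.54% of all probe sets passed (1.24% higher and 1.3% lower under HFD), and 0 of the 34 subunits did. At an unadjusted p under 0.05 limma picked 12 of the 34, all lower, against 20.8% of all probe sets and 22.9% of genes of like brightness. The arrays of the 2 diets did not overlap for 16 subunits, all of them lower under HFD, against 12.9% of probe sets that were lower and 11.8% that were higher without overlap. Of these 16, 13 belong to complex I and 3 to complex IV (Cox5b, Cox6c and Cox7b). By complex, the median difference was -0.19 log2 units for complex I (17 of 18 negative), -0.14 for complex II (3 of 4), -0.09 for complex III (4 of 5) and -0.03 for complex IV (6 of 7). Whether the complexes differ from each other was not tested.

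**Figure D2:**
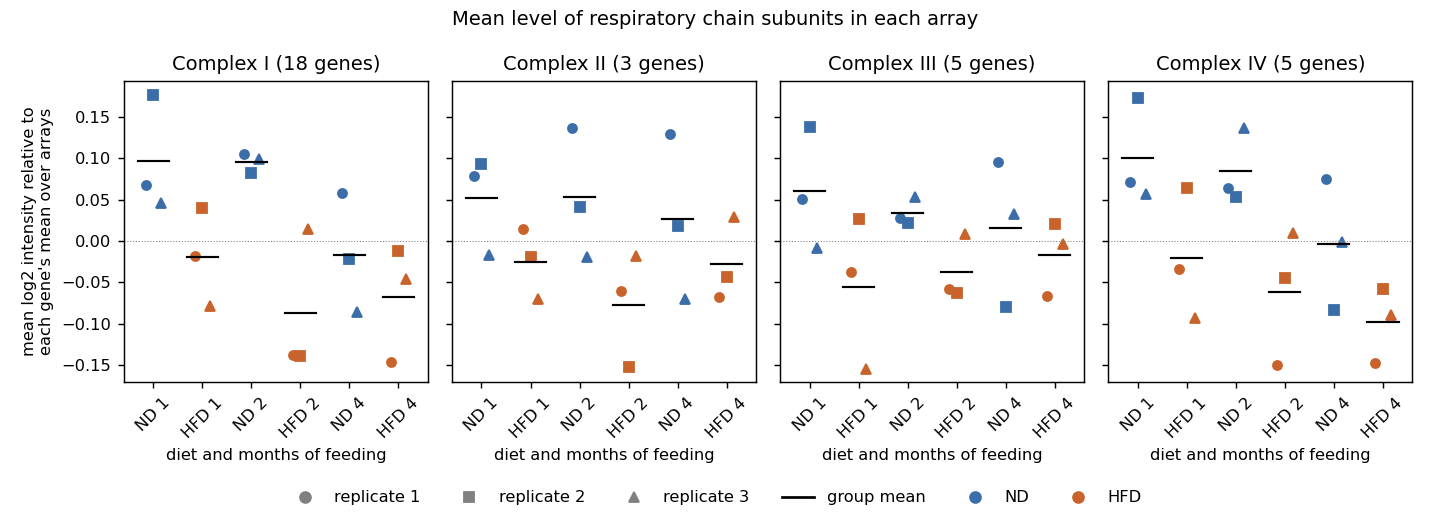
Mean level of the subunits of each complex in each array, in log2 units relative to each gene's mean over the arrays (vertical axis), by diet and months of feeding, for genes with a value on every array; points are arrays and bars are group means. For complex I at 2 months the ND arrays lie at 0.08 to 0.11 and the HFD arrays at -0.14, -0.14 and 0.01.

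Complex I is built from a peripheral arm, which holds the NADH oxidation module and the ubiquinone reduction module, and a membrane arm. Its members lay lower under HFD at 2 months in each of these: the median was -0.23 for the 5 subunits of the NADH module, -0.20 for the 4 of the ubiquinone module and -0.18 for the 8 of the membrane arm. Ndufs1, the large iron-sulfur subunit on the path from NADH, had the largest moderated t of the complex. At 2 months its log2 intensity was 8.29, 8.37 and 8.43 under ND and 7.94, 7.93 and 8.19 under HFD. The groups did not overlap, and HFD replicate 3 was the highest of its group. The difference was -0.34 ± 0.10 (SE, n = 3 arrays per diet; 95% interval -0.56 to -0.13), or 1.27-fold lower, and did not pass (limma adjusted p = 0.0842). At 1 month ND gave 8.46, 8.39 and 8.27 against 8.08, 8.27 and 8.09 under HFD, and at 4 months 8.41, 8.17 and 8.22 against 8.10, 8.23 and 8.24. The diets met at 8.27 at 1 month and overlapped broadly at 4 months.

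Ndufs8, which carries iron-sulfur clusters in the ubiquinone module, was 8.67, 8.53 and 8.68 under ND and 8.18, 8.12 and 8.50 under HFD at 2 months, again with HFD replicate 3 nearest to ND. Its difference was -0.36 ± 0.12 (limma adjusted p = 0.120). Some accessory subunits also had lower means under HFD. Ndufa2, of the NADH module, stood at -0.24 ± 0.09, and Ndufb10 and Ndufb3, of the membrane arm, at -0.26 ± 0.10 and -0.22 ± 0.08, with limma adjusted p between 0.151 and 0.163. Ndufs4, an accessory subunit whose loss causes a childhood encephalopathy in people, was -0.23 at both 1 and 2 months and -0.08 at 4 months. Ndufv1, which binds NADH and the flavin, was -0.16, -0.06 and 0.03 at the 3 times, and Ndufa9, at the junction of the arms, was -0.05, -0.05 and 0.10.

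In complex II, the succinate dehydrogenase that also serves the tricarboxylic acid cycle, the 4 genes had values from -0.25 to 0.06 at 2 months, and none passed. Sdhd, a membrane anchor at the ubiquinone site, had the largest moderated t at 2 months: 10.08, 9.93 and 9.75 under ND against 9.67, 9.52 and 9.83 under HFD. The groups overlapped, since HFD replicate 3 lay above the lowest ND array. The difference was -0.25 ± 0.11 (limma adjusted p = 0.237), and a second, dimmer probe set for Sdhd gave -0.24 ± 0.10. Sdhc, the other anchor, had the highest moderated t of all members at 2 months, at 0.06 ± 0.09 (adjusted p = 0.749). The iron-sulfur subunit Sdhb stood at -0.20, and Sdha, which holds the flavin and oxidises succinate, at -0.09. Sdha had its lowest value at 1 month, -0.27 ± 0.12 (adjusted p = 0.446), where 1 of the 3 ND arrays has no value for it.

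Complex III members stayed close to 0 at 2 months. Uqcrc1, a core protein and the lead of this complex by moderated t, was 9.73, 9.79 and 9.82 under ND and 9.65, 9.54 and 9.76 under HFD, with overlap. Its difference was -0.13 ± 0.10 (95% interval -0.34 to 0.07; limma adjusted p = 0.434). The other core protein, Uqcrc2, stood at -0.10, the Rieske iron-sulfur protein Uqcrfs1 at -0.09, cytochrome c1 (Cyc1) at -0.07 and the hinge protein Uqcrh at 0.03. Uqcrc2 had a lower value at 1 month, -0.24 ± 0.09, the largest moderated t of that time, with ND at 10.16, 10.36 and 10.11 and HFD at 10.03, 9.98 and 9.91. Those groups did not overlap, and the adjusted p was 0.392. Cyc1 was lowest at 4 months instead, with 10.02, 9.85 and 9.90 under ND and 9.57, 9.75 and 9.85 under HFD.

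Complex IV held both the member furthest from 0 and several of the members nearest to it. Cox7b, a small X-linked subunit of cytochrome c oxidase, was 11.01, 11.01 and 11.08 under ND at 2 months and 10.42, 10.48 and 10.82 under HFD, with no overlap. The difference of -0.46 ± 0.12 (95% interval -0.71 to -0.20), or 1.37-fold lower, was the largest of the 34 and did not pass (limma adjusted p = 0.0564). At 1 month Cox7b was 11.07, 11.13 and 10.86 under ND and 10.73, 10.96 and 10.62 under HFD, a difference of -0.25 with overlap. At 4 months the diets were level, at 10.94, 10.82 and 10.83 against 10.77, 10.92 and 10.86. Cox5b, a zinc-binding subunit, stood at -0.23 ± 0.09 at 2 months (adjusted p = 0.175). Cox4i1, the ubiquitous isoform of subunit 4, lay between 11.38 and 11.62 on the 17 arrays that have a value, with diet differences of 0.01, -0.03 and -0.01. Cox8a, the smallest subunit, was 0.00 at 2 months, and Ndufa4, once counted in complex I and now placed in complex IV, was -0.03.

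**Figure D3:**
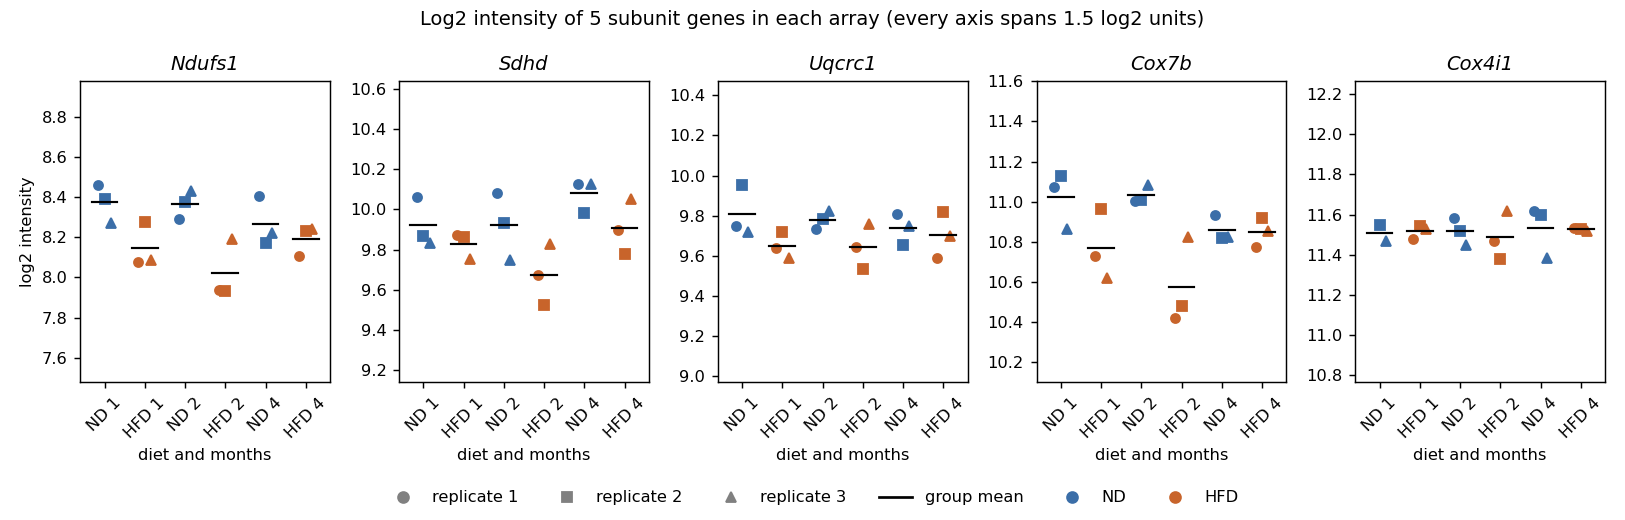
Log2 intensity (vertical axis, each spanning 1.5 log2 units) of Ndufs1, Sdhd, Uqcrc1, Cox7b and Cox4i1 in each array, by diet and months of feeding; points are arrays and bars are group means. At 2 months the Cox7b arrays lie at 11.01 to 11.08 under ND and 10.42 to 10.82 under HFD, while the Cox4i1 arrays overlap.

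The promoters of respiratory chain genes are known for sites of the nuclear respiratory factor NRF1 and of the ETS family factor GABPA, which couple them to mitochondrial biogenesis. The windows of the lead gene of each complex at 2 months, and of Cox4i1 as a gene with almost no difference, are printed to show how unlike their sequences are. Each runs 5′ to 3′ on the gene's strand from 250 bases before to 50 bases after the start, from RefSeq on GRCr8. Matches on either strand to the 10-letter NRF1 pattern (GCGCA, any base, then GCGC) or to ETS/GABPA (CCGGAAG) are in capitals. The genes lie at chr9:72040286-72073605 (Ndufs1, minus strand), chr8:59841090-59850641 (Sdhd, minus), chr8:118468223-118479968 (Uqcrc1, plus), chrX:75149036-75155285 (Cox7b, plus) and chr19:65630383-65636623 (Cox4i1, plus).
Ndufs1, chr9:72073556-72073855, minus strand: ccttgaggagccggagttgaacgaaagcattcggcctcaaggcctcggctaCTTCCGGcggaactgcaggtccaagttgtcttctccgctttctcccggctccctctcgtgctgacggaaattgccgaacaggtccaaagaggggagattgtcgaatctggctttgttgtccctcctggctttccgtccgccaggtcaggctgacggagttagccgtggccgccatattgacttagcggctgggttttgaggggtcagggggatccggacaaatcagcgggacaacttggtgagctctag
Sdhd, chr8:59850592-59850891, minus strand: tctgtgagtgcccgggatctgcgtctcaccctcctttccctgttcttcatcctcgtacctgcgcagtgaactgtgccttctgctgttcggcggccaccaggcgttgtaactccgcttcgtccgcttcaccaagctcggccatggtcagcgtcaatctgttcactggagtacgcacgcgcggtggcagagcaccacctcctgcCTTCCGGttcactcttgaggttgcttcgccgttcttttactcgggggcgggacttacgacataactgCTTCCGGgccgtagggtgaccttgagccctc
Uqcrc1, chr8:118467973-118468272, plus strand: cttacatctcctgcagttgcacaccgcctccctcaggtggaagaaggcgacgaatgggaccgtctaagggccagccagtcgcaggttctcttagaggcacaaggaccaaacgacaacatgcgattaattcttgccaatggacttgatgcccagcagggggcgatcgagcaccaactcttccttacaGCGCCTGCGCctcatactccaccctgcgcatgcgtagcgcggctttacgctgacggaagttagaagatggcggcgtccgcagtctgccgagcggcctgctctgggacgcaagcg
Cox7b, chrX:75148786-75149085, plus strand: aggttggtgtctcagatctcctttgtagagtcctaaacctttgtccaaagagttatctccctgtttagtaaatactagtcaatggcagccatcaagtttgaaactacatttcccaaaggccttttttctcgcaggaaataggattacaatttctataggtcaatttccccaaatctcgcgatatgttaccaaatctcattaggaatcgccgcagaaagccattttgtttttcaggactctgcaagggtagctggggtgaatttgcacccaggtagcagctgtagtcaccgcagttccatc
Cox4i1, chr19:65630133-65630432, plus strand: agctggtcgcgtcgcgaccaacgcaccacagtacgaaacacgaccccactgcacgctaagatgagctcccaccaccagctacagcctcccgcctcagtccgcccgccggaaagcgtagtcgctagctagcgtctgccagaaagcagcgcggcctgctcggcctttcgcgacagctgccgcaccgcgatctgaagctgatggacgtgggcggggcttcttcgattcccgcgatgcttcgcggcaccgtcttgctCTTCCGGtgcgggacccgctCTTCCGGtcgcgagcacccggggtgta

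Both Sdhd and Cox4i1 hold 2 ETS matches, Ndufs1 holds 1, Uqcrc1 holds an NRF1 match and Cox7b holds neither. Promoter windows were found for 30 of the 34 measured members (not for Ndufa8, Ndufb9, Cyc1 and Cox6c). Of the 30, 11 hold the ETS letters (36.7%), against 17.5% of 9502 promoters of tested genes and 9.22% of all 27457 windows. YY1 letters (AAGATGG) occur in 9 of the 30, against 8.51% and 7.30%. NRF1 letters occur in 3, Ndufa5, Sdha (3 matches) and Uqcrc1, or 10.0% against 9.92% and 4.71%. SP1 letters (GGGCGG) occur in 9 as well, against 62.5% of tested genes and 34.9% of all windows, and CCAAT letters in 9, against 37.7% of either. The NRF1 and ETS letters share no window among the 30, and 16 windows hold neither. The ERRA letters TCAAGGTCA occur in Sdhd only (0.221% of tested genes and 0.412% of all windows) and TATAAA in Ndufa2 only (6.84% and 14.3%). These shares describe the letters of these windows and no binding.

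At 1 month and at 4 months no probe set of the whole table passed (0% of 21729; lowest limma adjusted p 0.0513 and 0.999). At 1 month 4 subunits had an unadjusted p under 0.05 (9.77% of all probe sets), and 6 lay lower without overlap and 0 higher, against 10.7% of probe sets lower and 5.92% higher. The 3 lowest by moderated t were Uqcrc2, Ndufs4 (-0.23 ± 0.10) and Sdha, and the 3 highest Ndufa1 (0.08 ± 0.12), Cox4i1 (0.01) and Cox6c (0.00). Ndufs4 was 8.27, 8.47 and 8.20 under ND and 8.0, 8.22 and 8.04 under HFD, with 1 HFD array inside the ND range. At 4 months no subunit had an unadjusted p under 0.05 (3.73% of probe sets did), and Cyc1 and Ndufb5 lay lower without overlap and 0 genes higher, against 4.73% of probe sets lower and 3.81% higher. The lowest by moderated t were Cyc1 (-0.20 ± 0.09), Cox8a (-0.13 ± 0.08) and Sdhd (-0.17 ± 0.11), and the highest Ndufa9 (0.10), Sdha (0.07) and Uqcrh (0.08). The complex medians were -0.12, -0.11, -0.10 and -0.09 for complexes I to IV at 1 month, and -0.07, 0.00, -0.00 and -0.05 at 4 months.

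Averaged over the 3 times, 2.82% of probe sets passed (0.989% higher and 1.83% lower), and no subunit did. By unadjusted p under 0.05 limma picked 15 of the 34, against 21.4% of probe sets and 20.9% of genes of like brightness. Ndufs1 stood at -0.22 ± 0.06 (adjusted p = 0.0630), Cox7b at -0.24 ± 0.07 (0.0725) and Ndufs4 at -0.18 ± 0.06 (0.0873). The highest were Ndufa1 at 0.04, Uqcrh at 0.01 and Ndufa9 at -0.00. Whether the diet difference itself changed with time was tested with an F test over the 3 differences. No probe set passed it (0%), the lowest adjusted p of a subunit was 0.749 (Cox7b, F = 3.51), and no subunit had an unadjusted p under 0.05 (6.74% of probe sets did). The larger values at 2 months are thus not shown to differ from those at 1 and 4 months.

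Bright genes as a class also lay lower under HFD, as the plot by brightness shows. At 2 months the median of the 2588 genes between 8 and 10 log2 units was -0.08, and that of the 18 subunits in that class -0.19, all 18 negative. Above 10 units the 733 genes had a median of -0.07 and the 14 subunits of -0.07. The third quartile of intensity was between 124 and 132 on the ND arrays and between 119 and 128 on the HFD arrays, a difference in the upper part of the arrays' scales that moves with the diet. With quantile normalization, which makes these scales alike, the subunits' median was -0.07 at 2 months (25 of 34 negative), -0.01 at 4 months (20 negative) and -0.06 averaged over the times (28 negative). With each array centred on its median it was -0.17 at 2 months (32 negative). These values under quantile normalization are over 1.5 times smaller than on the deposited scale, and the part of the scale difference in the result was not tested further.

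**Figure D4:**
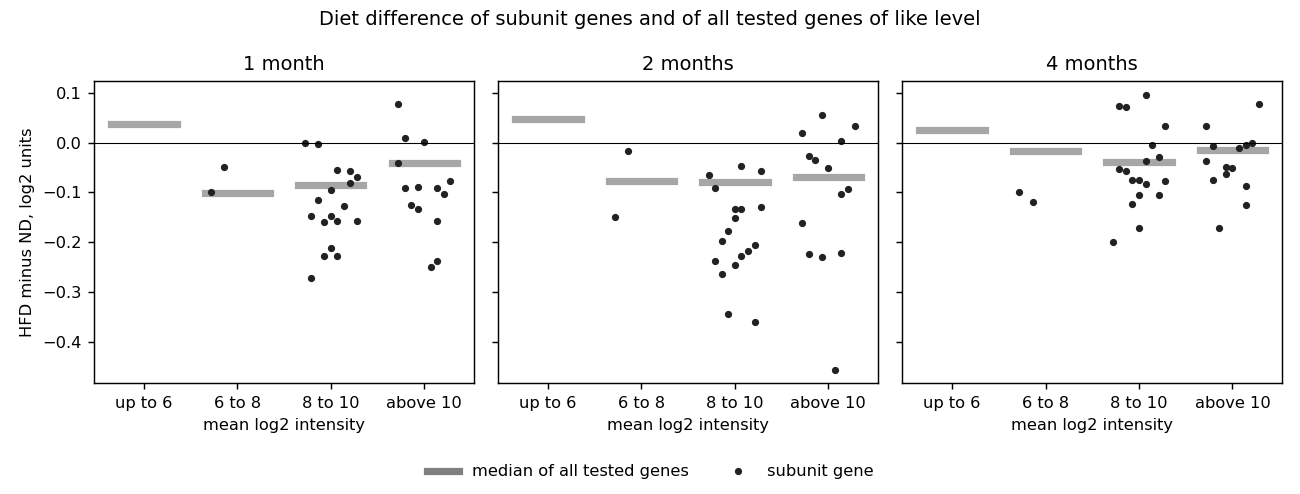
Difference between diets (log2 units, vertical axis) at 1, 2 and 4 months by class of mean log2 intensity (horizontal axis): points are the 34 subunit genes, and grey bars are the medians of all tested genes in the class. At 2 months the 18 subunits between 8 and 10 units have a median of -0.19 and the 2588 genes of that class -0.08.

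HFD replicate 3 at 2 months stood apart from the other HFD arrays of that time for the subunits. The mean over 31 subunits with a value on every array, relative to each gene's own mean, was 0.09, 0.06 and 0.09 in the ND arrays and -0.12, -0.11 and 0.01 in the HFD arrays. Without that array the median at 2 months was -0.19, and 4 subunits passed, all lower: Cox7b (-0.58), Ndufs8 (-0.48), Ndufs1 (-0.43) and Cox5b. The share of the whole table that passed in this fit is not given here, so these 4 calls are not set against it. Without HFD replicate 2 of the 1-month group, which is no part of this comparison but enters the estimate of spread, Cox7b passed too.

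Markers of macrophages moved with the arrays as well. The list (16 genes with a value on every array) had a mean, relative to each gene's own mean, of 1.67, 1.53 and -1.81 log2 units in the ND arrays at 2 months and of -2.44, -1.02 and 0.09 in the HFD arrays. All 21 tested markers were lower under HFD in their means at 2 months (median -1.57), and none passed. In the other groups the list ranged from -3.48 to 1.45 (ND, 1 month), -0.59 to 0.89 (HFD, 1 month), -0.11 to 1.99 (ND, 4 months) and 1.12 to 1.60 (HFD, 4 months). With the list mean as a covariate the subunits' median at 2 months was -0.14, as without it. Averaged over the times it was then -0.11, and Ndufs1 (-0.22, limma adjusted p = 0.0442) and Cox7b (-0.24, 0.0466) passed. The covariate also raised the whole table's count in that comparison, from 612 to 1393 of 21729 probe sets, so these 2 calls are not particular to the subunits.

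Some genes of the stromal marker list fell at 2 months, where 1.3% of all probe sets passed as lower and 1.24% as higher. Cxcl12, the chemokine that marrow stroma uses to hold blood stem cells, was 12.22, 11.56 and 12.63 under ND and 8.53, 8.56 and 9.72 under HFD, a fall by 3.20 ± 0.47 (limma adjusted p = 0.00922). The growth factor receptor Pdgfra fell by 1.08 ± 0.25 and Ly6e by 0.88 ± 0.19, and the other 11 stromal markers tested did not pass (list median 0.03, 7 of 14 negative). In HFD cultures Cxcl12 fell by 2.94 from 1 to 2 months (limma adjusted p = 0.0395) and rose by 2.51 from 2 to 4 months (0.0352). In these comparisons 0.0782% and 0.704% of all probe sets passed. Of 18 fits that each left out 1 array, Cxcl12 passed in 18 for the diets at 2 months, 5 from 1 to 2 months and 11 from 2 to 4 months, Pdgfra in 10 and Ly6e in 13. With the macrophage covariate Pdgfra (adjusted p = 0.0705) and the 2-to-4-month call of Cxcl12 (0.0586) did not pass. Of 6 adipocyte markers the transcription factor Cebpa fell by 1.65 ± 0.38 (list median -1.39), passing in 12 of those 18 fits and not with the covariate (0.063). With the 6 arrays of 2 months alone none of these 4 genes passed (adjusted p from 0.0772 for Cxcl12 to 0.109 for Ly6e), and with quantile normalization Pdgfra did not (0.0520). Endothelial, erythroid, lymphoid and granulocyte lists, with 3, 3, 2 and 3 genes tested, had medians of -0.80, 0.15, -0.33 and -0.52 at 2 months with 0 passing. The part of these differences in the subunits' values was not tested.

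Growth markers also differed between the arrays. In the cell cycle list all 26 tested genes were lower under HFD at 2 months (median -0.72) and at 4 months (-0.64), and at 1 month 22 of 26 were (-0.13), with 0 passing each time. Their mean (23 genes) ranged from -0.19 to 0.34 in the ND arrays at 2 months and from -1.28 to -0.36 in the HFD arrays. At 4 months the arrays overlapped, from -0.57 to 1.25 under ND and from -0.65 to 0.32 under HFD. The part of this difference in the subunits' values was not tested.

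With feeding time the subunits moved little in either diet. In ND cultures the median difference was -0.01 from 1 to 2 months, -0.09 from 2 to 4 months (29 of 34 negative) and -0.08 from 1 to 4 months (28 negative), and no probe set of the table passed in these comparisons (0%). The numbers of subunits with an unadjusted p under 0.05 were 0, 2 and 1, against 2.59%, 7.38% and 9.39% of probe sets. From 2 to 4 months Ndufb10 was 9.63, 9.66 and 9.60 at 2 months and 9.41, 9.37 and 9.29 at 4 months with no overlap, a difference of -0.28 ± 0.10 (limma adjusted p = 0.571). Ndufa2 (-0.22) and Ndufa9 (-0.20) were next, and Sdhd (0.16), Cyc1 (0.12) and Cox4i1 (0.02) were highest. From 1 to 2 months Sdha (-0.13), Cox8a (-0.07) and Ndufs4 (-0.08) were lowest, and Ndufb10 (0.08), Cox6c (0.08) and Ndufb8 (0.08) highest. From 1 to 4 months Ndufa2 (-0.20), Sdha (-0.24) and Ndufa9 (-0.21) were lowest, and Sdhd (0.16), Cyc1 (0.10) and Cox5a (0.06) highest.

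In HFD cultures the median was -0.03 from 1 to 2 months, 0.00 from 2 to 4 months and -0.01 from 1 to 4 months. The whole table had 0.0782%, 0.704% and 0% of probe sets passing, and the subunits 0 each time, with 2, 2 and 0 of them at an unadjusted p under 0.05 (7.76%, 16.9% and 7.92% of probe sets). From 2 to 4 months the members furthest from 0 lay on both sides, and none passed. Cox7b was 10.42, 10.48 and 10.82 at 2 months and 10.77, 10.92 and 10.86 at 4 months, a difference of 0.27 ± 0.12 (limma adjusted p = 0.261), while Ndufa4 was 10.89, 10.95 and 10.83 and then 10.38, 10.67 and 10.67, or -0.32 ± 0.16 (0.320). In complex II the anchor Sdhc stood at -0.23 ± 0.09 (0.216) and the anchor Sdhd at 0.23 ± 0.11 (0.316). Cox8a was at -0.16 and Ndufs1 at 0.17. With the macrophage covariate Ndufa4 was at -0.09 and Sdhc at -0.14 in this comparison. From 1 to 2 months Ndufb5 (-0.19), Ndufs8 (-0.26) and Cox7b (-0.20) were lowest, and Sdhc (0.12), Uqcrc2 (0.09) and Uqcrh (0.11) highest. From 1 to 4 months the lowest were Ndufa4 (-0.31), Ndufb6 (-0.15) and Cox8a (-0.13), and the highest Sdha (0.11), Uqcrc2 (0.09) and Uqcrfs1 (0.08). The ND and HFD comparisons at each time and these time courses share arrays, so they are not independent of each other.

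The rest of the chain was read from lists of further genes. At 2 months the other complex I subunits had 14 of 15 negative values (median -0.11), the other complex III and IV subunits 4 of 7 (-0.03), and the ATP synthase subunits 13 of 14 (-0.17), with 0 passing in each list in any comparison. Regulators of mitochondrial biogenesis were spread around 0, with 11 of 19 negative (median -0.03) and 0 passing. Isoforms for special tissues or low oxygen (Cox4i2, Cox6a2, Cox7a1 and Ndufa4l2) had 0 of 4 passing. Cox7a1 lay between 3.79 and 4.47 over the arrays, while Cox6a2, Ndufa4l2 and Cox4i2 varied widely. Cox6a2 ranged from 3.20 to 7.25 and had higher means under HFD, by 1.93, 1.18 and 0.57 at 1, 2 and 4 months. Ndufa4l2, a gene known to be induced by low oxygen, ranged from 4.07 to 10.04 over the arrays, with 8.41, 8.10 and 4.96 under ND at 2 months and 4.18, 4.07 and 5.70 under HFD. Cox4i2 was 8.38, 8.92 and 6.76 against 4.78, 4.72 and 6.58 (-2.66 ± 0.85, limma adjusted p = 0.105). The diet differences at 1, 2 and 4 months were -0.54, -2.51 and 1.99 for Ndufa4l2 and 0.30, -2.66 and 0.29 for Cox4i2. In Ndufa4l2 and Cox4i2 the single arrays of a group differ by more than any subunit did across all arrays.

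Among 34 factors that assemble the complexes, 2 passed at 2 months, where 1.3% of all probe sets passed as lower and 1.24% as higher, and 2 others passed averaged over the times (1.83% lower and 0.989% higher). All 4 were lower under HFD. At 2 months Uqcc1, needed for complex III, fell by 0.54 ± 0.12 (limma adjusted p = 0.0349), from 7.43, 7.23 and 7.38 to 6.67, 6.79 and 6.97. Coa5, needed for complex IV, fell by 0.65 ± 0.15 (0.0411), from 8.86, 8.57 and 8.71 to 8.06, 7.82 and 8.30. The groups did not overlap for either gene, and the list's median was -0.13 with 25 of 34 negative. Averaged over the times, Ndufaf1, an early factor of complex I assembly, fell by 0.36 ± 0.08 (0.0269), and Sdhaf2, which helps attach the flavin to Sdha, by 0.27 ± 0.06 (0.0378). For Ndufaf1 the HFD arrays lay at 5.94 to 6.00, 5.66 to 6.07 and 5.68 to 5.81 at the 3 times and the ND arrays at 6.28 to 6.62, 6.17 to 6.44 and 5.79 to 6.16. With its probe sets averaged, Sdhaf2 stood at -0.11 (0.423). The calls of all 4 were lost under quantile normalization, at adjusted p between 0.0603 and 0.100, with values from -0.58 to -0.20. Each was also lost when some single arrays were left out: Uqcc1 without 5 of the 18, Coa5 without 10, Ndufaf1 without 4 and Sdhaf2 without 14.

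**Figure D5:**
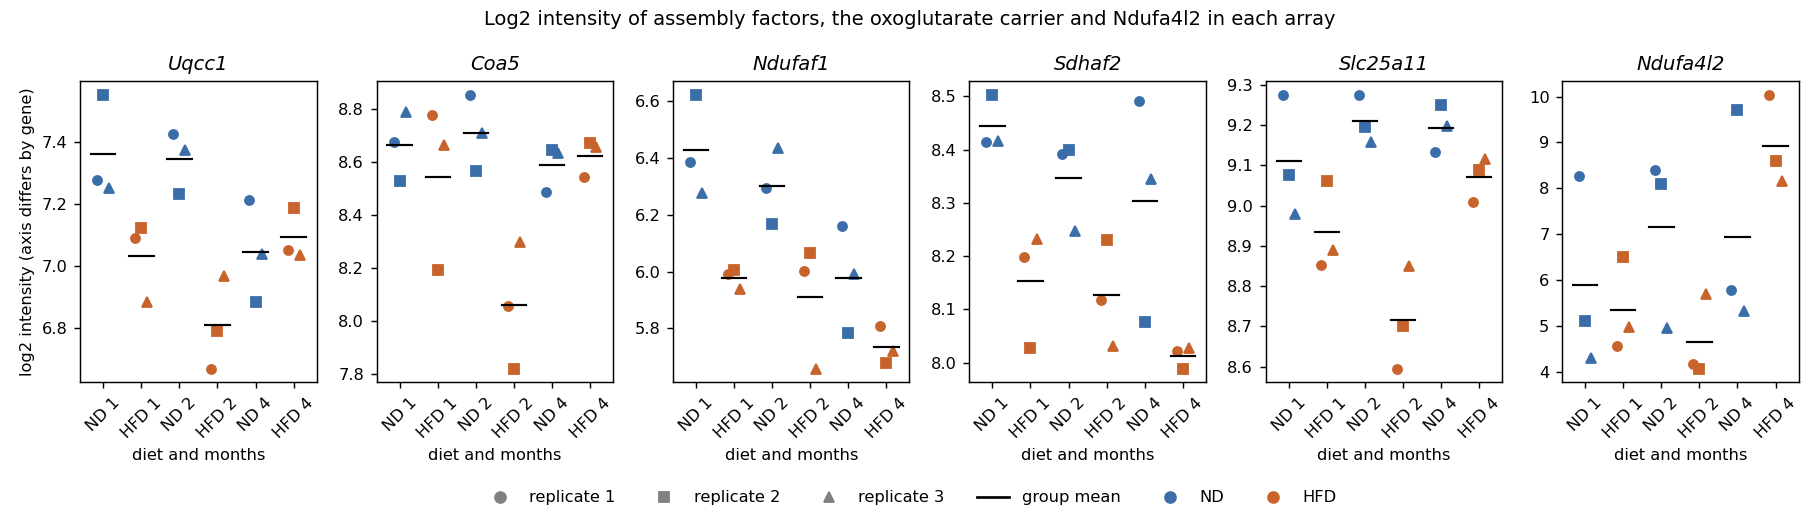
Log2 intensity (vertical axis, differing by gene) of the assembly factors Uqcc1, Coa5, Ndufaf1 and Sdhaf2, the oxoglutarate carrier Slc25a11 and the hypoxia isoform Ndufa4l2 in each array, by diet and months of feeding; points are arrays and bars are group means. At 2 months the Uqcc1 arrays lie at 7.23 to 7.43 under ND and 6.67 to 6.97 under HFD, while Ndufa4l2 spans 4.07 to 10.04 over all arrays.

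Of the enzymes and carriers that feed the chain, 3 lists had 1 gene each that fell at 2 months, of 15, 15 and 18 tested, against 1.3% of all probe sets that passed as lower. Idh2, the mitochondrial isocitrate dehydrogenase that makes NADPH, was 9.23, 9.17 and 9.64 under ND and 7.83, 8.09 and 8.96 under HFD. It fell by 1.06 ± 0.26 (limma adjusted p = 0.0463), as 1 of 15 tricarboxylic acid cycle enzymes (11 negative, median -0.16). Slc25a11, the carrier that exchanges oxoglutarate for malate, fell by 0.49 ± 0.10 (0.0218), from 9.28, 9.20 and 9.16 to 8.60, 8.70 and 8.85, and by 0.26 ± 0.06 averaged over the times (0.0312). It was the 1 of 15 carriers and outer membrane proteins that passed (10 negative, median -0.09). In the glycolysis list, 18 of 18 negative (median -0.59), the monocarboxylate carrier Slc16a1 fell by 0.60 ± 0.15 (0.0463). The mean of the 12 glycolysis genes with a value on every array overlapped between the diets at 2 months. It ranged from -0.45 to 0.71 in the ND arrays and from -0.93 to -0.10 in the HFD arrays. The calls of Idh2, Slc16a1 and Slc25a11 varied with the arrays fitted. Of 18 fits that each left out 1 array, Idh2 passed in 3, Slc16a1 in 5 and Slc25a11 in 14 at 2 months and 7 on average. Idh2 and Slc16a1 were lost also without single arrays of 1 or 4 months, which are no part of the 2-month difference. All these calls were lost under quantile normalization, where Slc25a11 at 2 months stood at -0.43 (0.0532), and at 2 months also with the 6 arrays compared alone. With the macrophage covariate Idh2 (-1.02, 0.0769), Slc16a1 (-0.51, 0.0805) and the assembly factor Coa5 (-0.67, 0.0523) did not pass at 2 months.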

How the data were processed

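Each array held 31099 probe sets, 57 of them controls, and the authors deposited each intensity on a linear scale; per the submitters' processing notes it was summarised by RMA, for which no version is given. These values were put on the log2 scale as they stand. In 1 column, ND 1-month replicate 1, values sit 1343 rows too high and were moved down (correlation with the other arrays 0.0909 before and 0.990 after), which leaves Cox4i1, Cox6c and Sdha with 17 values. Array medians were 25.4 to 27.1, and the number of arrays limits the precision. Names follow GEO's platform annotation, with 1 symbol for 20832 probe sets, several for 436 and none for 9831.

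The dimmest 30% of probe sets (mean log2 up to 3.22) were left out, and each gene was read from its brightest probe set. A second probe set of Ndufa9 fell below that level, and those of Sdhd and Uqcrc2 had the sign of the first at 2 months. limma 3.58.1 in R 4.3.3 fitted 1 mean per group over all 18 arrays (12 residual degrees of freedom), and p-values were adjusted by Benjamini-Hochberg over 21729 probe sets. The script was tested on simulated data with changes larger than any subunit's difference here, so that test does not cover differences of the subunits' size.

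Members and lists were chosen with earlier results of these data known. Per comparison the text names passing members or, with none, the 3 highest and 3 lowest by moderated t; genes of other lists are named where they pass. The files were otherwise compared under other filters, normalizations, weights, probe set rules, a macrophage covariate, a replicate block and without each array. Residual correlations showed no clear pairing of arrays by replicate number, and with 3 arrays per group they cannot exclude one.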

Additional observations from a re-analysis of the deposited data

How the results depend on the processing

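Of 627 values of the counts and medians over all 11 comparisons under other settings, 614 were labelled as unchanged and 13 were not. A median was so labelled within 0.06 log2 units of its main value, which exceeds the size of the 4-month diet median (-0.05). The main count was 0 in all 11 comparisons, so a count was unchanged only at 0. The tally thus does not show that the medians are stable. All 119 diet medians were negative. At 2 months 1 subunit passed with the dimmest 50% removed (Cox7b), 1 with an intensity trend and robust variance (Cox7b), and 10 with array weights, which lowered the weight of some arrays and also raised the table's count from 552 to 4330. On average over the times 1 passed with median centring (Ndufs1), 12 with array weights and 2 with the macrophage covariate. From 2 to 4 months in HFD 2 passed with array weights (Sdhc and Cox7b). The table's own counts are not given here for the 50% filter, the intensity trend, median centring, this last comparison or fits without 1 array. The subunit calls in those fits are thus not set against the whole table. With quantile normalization the members' median log2 difference at 2 months was -0.067. With 1 array left out the number passing ranged from 0 to 4 at 2 months, with 4 without HFD replicate 3 of 2 months, and from 0 to 2 on average, with 2 without that array and 1 without ND replicate 2 of 4 months or HFD replicate 2 of 1 month. It was 0 in the other comparisons. The median then ranged from -0.14 to -0.07 at 1 month, -0.19 to -0.12 at 2 months, -0.09 to -0.01 at 4 months and -0.13 to -0.09 on average.

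With the replicate number as a block 0 subunits passed in each comparison, and the whole table had 320 probe sets passing at 2 months (552 without the block) and 350 on average (612). Residuals of same-numbered arrays in different groups had a mean correlation of -0.03 over 45 pairs (-0.57 to 0.66), and 5 of 18 arrays correlated best with their own number. With the block Uqcc1 (adjusted p = 0.060), Idh2 and Slc16a1 (0.0685 each) at 2 months and Sdhaf2 (0.0571) and Slc25a11 (0.0518) on average did not pass. Without a filter Idh2 (0.0523) and Slc16a1 (0.0524) did not.

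The table's own count at 2 months was 2 with the 6 compared arrays alone, 476 without a filter and 513 with quantile normalization (312 higher and 201 lower, against 269 and 283). On average it was 1393 with the covariate, 3317 with array weights, 259 with quantile normalization (135 higher and 124 lower, against 215 and 397) and 248 with probe sets averaged. The causes were not tested. A group of 3 arrays limits every result here: a subunit's 2-month standard error was 0.08 to 0.16 log2 units. Differences well above that size were not resolved either. In the main fit Cox7b at -0.46 ± 0.12 did not pass at 2 months (limma adjusted p = 0.0564).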
